A study of Homo sapiens with 2 samples.

Results

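The EGF receptor system comprises soluble ligands that are cut from membrane-bound precursors and 4 ERBB receptor tyrosine kinases. The members described here were chosen by name: the ligands EREG, HBEGF, AREG, TGFA, EGF and BTC and the receptors EGFR, ERBB2, ERBB3 and ERBB4. Of these 10 genes, 9 had a probe set in the deposited table, out of 18417 genes that a probe set named alone. AREG was listed on no probe set of the platform annotation and was not analysed here. Each of the other 9 genes had 1 probe set, and none of these named a further gene. The list was chosen with the differences between these 2 arrays already known, EREG among them, so the siRNA minus NC differences below are a description with no test.

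The samples were cultures of Huh-7, an established line from a human hepatocellular carcinoma, and each was hybridised to an expression array of its own, 2 arrays in all. The cells were transfected with DEPDC1 siRNA in the first culture and with NC, labelled as the control, in the second. The siRNA culture is labelled as transfected for 72 h. The NC label gives no time, and 72 h was assumed for it too. Neither the siRNA sequence nor the number of siRNAs is given in the sources used here. With 1 array per group, no value below has a replicate error, and the spread between cultures is unknown. DEPDC1 encodes a DEP domain protein. Its own transcript, the siRNA target, stood at 5.15 (log2) in the siRNA array and 7.82 in the NC array, 6.37-fold lower in the siRNA array. All values are deposited log2 expression, differences are siRNA minus NC, and detection meant that at least 1 of a gene's values reached 4.66, the overall median of the table. Hepatocyte markers were present: all 9 with a probe set were detected.

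As background, ligand binding brings ERBB receptors together in pairs, and their kinase domains then signal through RAS and MAPK, through PI3K and AKT, and through STAT proteins. EREG (epiregulin), HBEGF (heparin-binding EGF-like growth factor) and BTC (betacellulin) bind both EGFR and ERBB4, while EGF, TGFA (transforming growth factor alpha) and AREG (amphiregulin) bind EGFR. ERBB2 has no known ligand of its own and acts as a partner, and ERBB3 has a weak kinase. In the liver, the EGF receptor system is known for its part in regeneration after tissue loss.

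The promoters of 3 ligands are shown because EREG and HBEGF carried the large differences and BTC lies near EREG on the same chromosome. BTC was under the detection threshold in both arrays, so it is no contrast to them. They are RefSeq sequences of build GRCh38.p14, 250 bases before to 50 bases after the annotated start, for EREG chr4:74364895-74365194 (plus strand), for HBEGF chr5:140346554-140346853 (minus strand) and for BTC chr4:74794474-74794773 (minus strand). Capitals mark matches, on either strand, to an AP-1 motif (TGANTCA), a cAMP response element (TGACGTCA), a TEAD motif (GGAATG), a GC box (GGGCGG) and a TATA box (TATAAA).
EREG: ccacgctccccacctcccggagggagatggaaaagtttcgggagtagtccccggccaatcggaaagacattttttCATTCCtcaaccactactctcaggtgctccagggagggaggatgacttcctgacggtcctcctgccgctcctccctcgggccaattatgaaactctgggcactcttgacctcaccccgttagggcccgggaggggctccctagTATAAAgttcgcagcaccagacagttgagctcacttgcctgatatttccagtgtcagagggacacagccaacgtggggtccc
HBEGF: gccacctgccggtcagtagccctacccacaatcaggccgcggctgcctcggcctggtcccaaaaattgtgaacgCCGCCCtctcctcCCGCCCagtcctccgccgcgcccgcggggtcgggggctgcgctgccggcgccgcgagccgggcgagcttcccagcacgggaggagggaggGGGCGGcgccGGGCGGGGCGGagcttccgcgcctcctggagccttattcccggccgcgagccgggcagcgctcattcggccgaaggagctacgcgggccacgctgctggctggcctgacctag
BTC: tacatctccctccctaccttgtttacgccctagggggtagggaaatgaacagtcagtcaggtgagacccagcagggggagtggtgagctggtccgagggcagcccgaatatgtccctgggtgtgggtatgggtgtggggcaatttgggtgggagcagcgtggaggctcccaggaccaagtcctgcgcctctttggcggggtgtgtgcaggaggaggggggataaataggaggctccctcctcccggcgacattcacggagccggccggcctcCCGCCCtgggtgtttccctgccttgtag

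These windows differed in what they hold. The EREG promoter has a TATA box whose first base lies at position -32 from the start and a TEAD motif on the reverse strand at -175, and no GC box. The HBEGF promoter has 5 GC boxes between -176 and -58, of which the last 2 overlap by 1 base, and no TATA box, and 75% of its bases are G or C, against 57.7% in EREG and 63% in BTC. The BTC promoter has a single GC box at 23 bases after the start. None of the 3 windows holds the AP-1 motif or the cAMP response element in these letters. In the table, which matched 9 of the 10 members, the AP-1 motif is found in the EGF promoter at -17, in the ERBB2 promoter at -222 and in 1 of the EGFR promoters at -232 and -136, and the cAMP response element in the AREG promoter at -65. Among all 35116 promoters of the RefSeq table, 7.71% hold the AP-1 motif, 1.85% the cAMP response element, 14% the TEAD motif, 45% a GC box and 11.5% the TATA box. The motifs of EREG and HBEGF also occur in other members. In 1 TGFA promoter there are 4 GC boxes and in 1 EGFR promoter 3, each with 75.3% G or C. The TATA box is found in the AREG promoter at -29 and in the other EGFR promoter at -146 and -36. The TEAD motif is found in the EGF promoter at -12 and in that EGFR promoter at -114. A match is a description of the letters and not a binding site.

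EREG was the member with the largest difference. Its probe set (8095728, Entrez gene 2069) showed a level of 7.75 (log2) in the siRNA array and 4.83 in the NC array. The siRNA value lay 3.09 above the detection threshold and the NC value 0.17 above it. The difference of 2.92 is 7.55-fold higher. HBEGF, also the receptor of diphtheria toxin in its membrane-bound form, had 6.15 in the siRNA array and 4.23 in the NC array (probe set 8114572, Entrez gene 1839). The NC value lay under the threshold, so the measured difference of 1.92 is given as a bound against it, at least 2.80-fold higher in the siRNA array. With a threshold taken from probe sets with a listed gene, 5.17, the NC value of EREG lies under it too, and the bounds become at least 5.96-fold for EREG and at least 1.96-fold for HBEGF.

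The 3 other ligands with a probe set lay under the threshold in both arrays, so no fold is given for them. BTC had 4.11 in the siRNA array and 3.75 in the NC array. EGF, the founding ligand of the family, had 3.17 in the siRNA array and 2.93 in the NC array. TGFA had 2.45 in the siRNA array and 2.56 in the NC array. By this convention, transcripts of these 3 ligands were not detected in either culture.

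**Figure D1:**
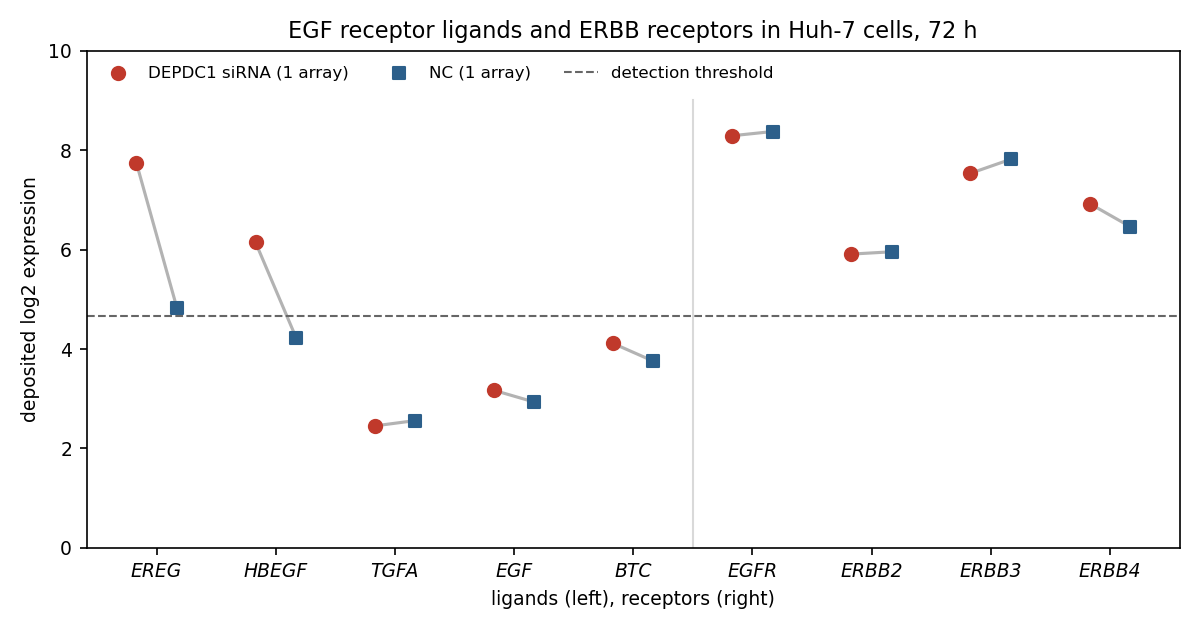
Deposited log2 expression (vertical axis) of the 9 genes with a probe set, 1 point per array, DEPDC1 siRNA as circles and NC as squares. The dashed line is the detection threshold of 4.66. EREG and HBEGF are far higher in the siRNA array, BTC, EGF and TGFA stay under the line, and the receptor pairs lie close together. Levels of different genes are not comparable.

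All 4 receptors were detected in both arrays, and none differed by 2-fold. EGFR, the receptor shared by all the ligands listed here, stood at 8.29 (log2) in the siRNA array and 8.38 in the NC array, a difference of -0.085. ERBB2 (HER2) had 5.91 in the siRNA array and 5.96 in the NC array, a difference of -0.047. These are small differences on these arrays: 76.1% of detected genes differed at least as much as EGFR in either direction, and 87.1% at least as much as ERBB2.

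ERBB3 and ERBB4, the receptors that bind neuregulins, differed more and in opposite directions. ERBB3 had 7.53 in the siRNA array and 7.82 in the NC array, a difference of -0.28. ERBB4 had 6.93 in the siRNA array and 6.46 in the NC array, a difference of 0.46 or 1.38-fold higher. In either direction, 33.5% of detected genes differed at least as much as ERBB3 and 16.0% at least as much as ERBB4. Counted in 1 direction only, 14.4% were lower by at least as much as ERBB3. For ERBB4, 9.66% were higher by at least as much. Different probe sets of the same gene disagreed in their differences by a median of 0.087 and a 90th percentile of 0.41 over 444 genes. This is a rough gauge of agreement within the arrays. It is lowered by probe sets with nearly the same values, such as the 2 of APOA1, both at -0.71. Only ERBB4 of the receptors lay beyond that 90th percentile. The gauge does not cover the spread between cultures.

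Set against all genes, 2 of the 6 detected members, EREG and HBEGF, were at least 2-fold higher by their measured values, where 1.94% of the 11352 detected genes were (220 genes). None of the 6 was at least 2-fold lower, where 0.863% of detected genes were (98 genes). HBEGF counted as detected only through its siRNA value, so the count of 2 of 6 depends in part on the difference it counts. With no filter on low values, the same 2 of 9 members were at least 2-fold higher, where 1.25% of 18417 genes were. The members were chosen with this contrast in view, so these shares are printed for scale only. By measured difference, EREG stood at rank 3 from the top, and no rank is given for HBEGF because its NC value lay under the threshold. With the detected genes split by mean level into 4 groups of 2838, 2.29% were at least 2-fold higher in the lowest group, which holds HBEGF, and 1.97% in the next, which holds EREG.

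**Figure D2:**
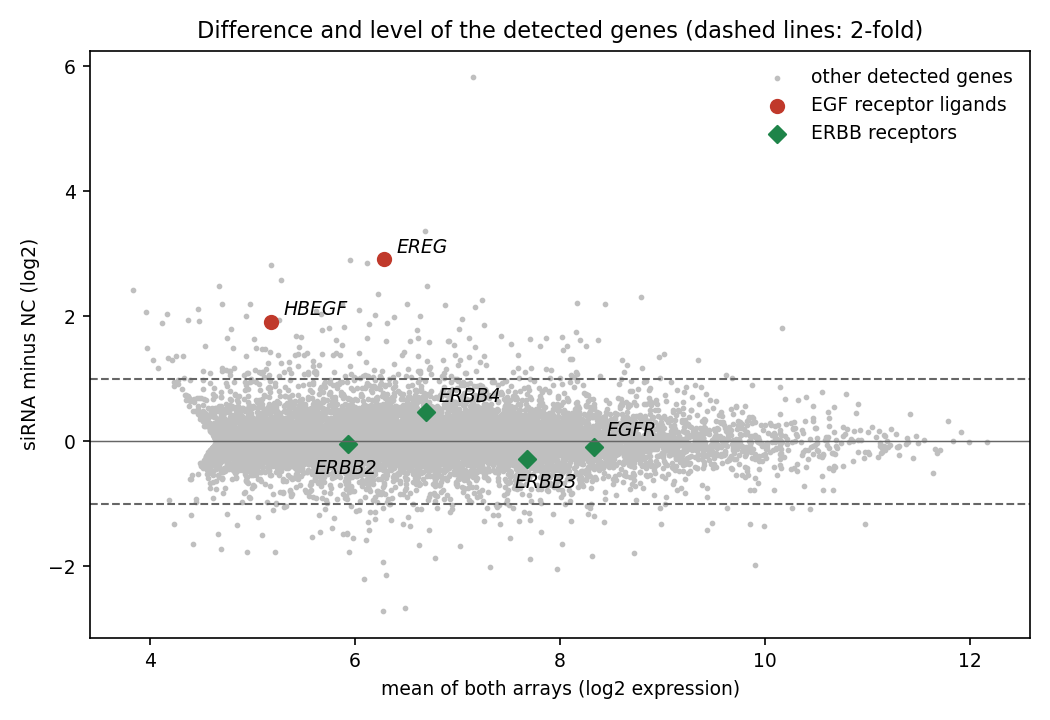
Difference between the arrays (siRNA minus NC, log2, vertical axis) against the mean of both arrays (log2 expression, horizontal axis) for the 11352 detected genes. Dashed lines mark 2-fold. EREG at 2.92 and HBEGF at 1.92 lie above the upper line, and the 4 receptors lie between -0.28 and 0.46.

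The genes nearest to EREG in difference were named by rank, over these 2 arrays. Just above it were ANXA1 (annexin A1, a phospholipid-binding protein), with 10.07 in the siRNA array and 4.24 in the NC array, and SLC1A3 (a glutamate transporter), with 8.37 in the siRNA array and 4.998 in the NC array. Just below it were COL12A1 (a fibril-associated collagen), with 7.40 in the siRNA array and 4.503 in the NC array, and GPRC5A (a retinoic acid-inducible receptor), with 7.55 in the siRNA array and 4.70 in the NC array. The 4 genes after ANXA1, EREG included, thus had differences between 2.85 and 3.37, and the NC values of ANXA1 and COL12A1 lay under the detection threshold.

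EREG, AREG, BTC and the related ligand EPGN (epigen) lie next to each other on chromosome 4, beside a cluster of CXC chemokine genes. The neighbours in RefSeq order were looked up after the values of EREG and HBEGF were seen. EPGN, directly before EREG, lay under the threshold in both arrays, with 2.45 in the siRNA array and 2.22 in the NC array. MTHFD2L, a mitochondrial folate enzyme, lay under it too. Among the 6 genes before EPGN, on the chemokine side, CXCL5 (a neutrophil-attracting chemokine) had 7.94 in the siRNA array and 6.29 in the NC array, 3.13-fold higher, while CXCL2 had 5.19 in the siRNA array and 5.10 in the NC array. On the far side of BTC, PARM1 differed by 0.45 and RCHY1 by -0.24, THAP6 had 4.43 in the siRNA array, under the threshold, and 4.70 in the NC array, and G3BP2, a stress granule protein, was 2.25-fold higher. Of the 7 detected genes in this stretch, which was chosen by EREG, EREG, CXCL5 and G3BP2 were at least 2-fold higher, where 1.94% of all detected genes were. They were not adjacent to each other. Between them, CXCL3, MTHFD2L, EPGN and BTC lay under the threshold in both arrays, so whether a run of neighbours differed cannot be read here. AREG, directly after EREG, has no value.

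HBEGF lies on chromosome 5, with the neuregulin gene NRG2 at 6 genes' distance in the same order. Its direct neighbour PFDN1, a prefoldin subunit, differed by 0.38, and on its other side SLC4A9, a bicarbonate transporter, lay under the threshold with the same deposited value in both arrays. The 6 other detected genes within 6 places of HBEGF differed by between -0.25 and 0.38, none by 2-fold.

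**Figure D3:**
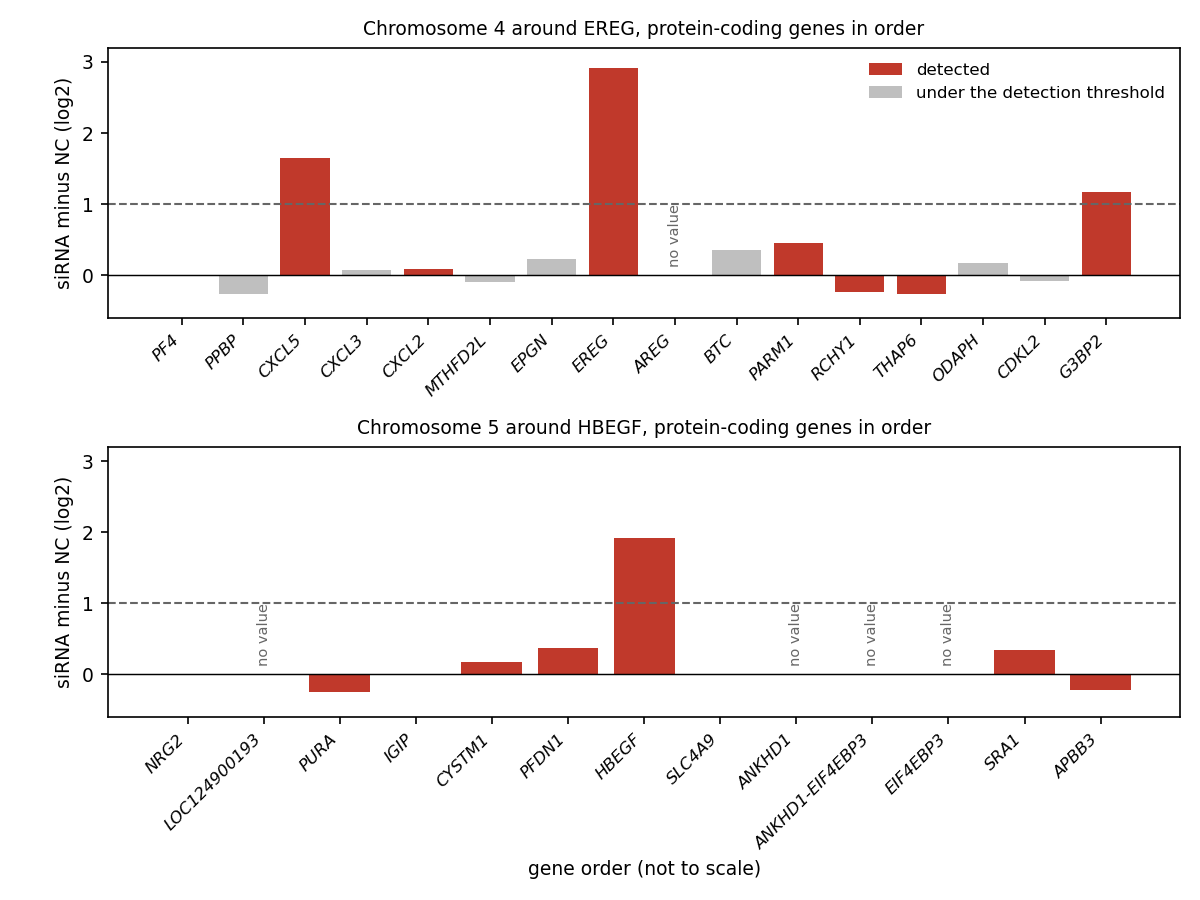
Difference between the arrays (siRNA minus NC, log2) of protein-coding genes in RefSeq order around EREG on chromosome 4 and around HBEGF on chromosome 5. Bars in red are detected genes, grey bars lie under the detection threshold in both arrays, and the dashed line marks 2-fold. EREG, CXCL5 and G3BP2 pass it on chromosome 4 and, of the genes with a value, HBEGF alone on chromosome 5. NRG2, IGIP and SLC4A9 have no bar because their values are the same in both arrays.

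The other ligands of the family were low or level. Of EPGN and the neuregulins NRG1, NRG2, NRG3 and NRG4, which bind ERBB3 or ERBB4, only NRG2 was detected. It had 5.36 in both arrays, the same deposited value to the last digit. Such identical pairs made up 5.83% of all probe sets.

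Genes of ligand shedding, the release of mature ligands from their precursors, and of its control differed little. Of 12 listed genes 10 were detected, none was 2-fold different, and their median was -0.0093, beside 0.00 for all detected genes. TIMP3, an inhibitor of ADAM17, differed by 0.47 (6.73 in the siRNA array and 6.26 in the NC array), but its dimmer probe set, which lay under the threshold in both arrays, by 0.059. The metalloprotease ADAM9 differed by 0.38 and the proprotein convertase FURIN by -0.30. RHBDF2 (iRhom2, a partner of ADAM17) had 4.76 in the siRNA array and 4.57, under the threshold, in the NC array. ADAM17 and ADAM10, the main sheddases of these ligands, differed by -0.019 and -0.099, both named after their values were seen.

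Adaptors and regulators that act on the receptors went both ways. All 20 were detected, 11 with a higher and 9 with a lower value, none by 2-fold, and the median was 0.032. LRIG1, a transmembrane protein that promotes degradation of ERBB receptors, had the largest difference, with 4.99 in the siRNA array and 5.76 in the NC array, a difference of -0.77. PTPN11 (the phosphatase SHP2) differed by 0.57 and the adaptor SHC1 by 0.56. The RAS exchange factor SOS2 differed by -0.52. ERRFI1 (MIG6), a direct inhibitor of the EGFR kinase named after its value was seen, differed by -0.12.

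Downstream cascades held no gene with a 2-fold difference. In the RAS and MAPK list, 8 of 14 genes had a probe set of their own, all 8 detected, with a median of -0.070, and KSR1, a scaffold of the cascade, differed most at -0.42. MAP2K1 (MEK1) followed at -0.29, NF1, a RAS inhibitor, at 0.12 and ARAF at -0.11. In the PI3K and AKT list, 8 of 12 genes had a probe set of their own, with a median of -0.092. The kinase AKT1 differed by 0.65, the PI3K regulatory subunits PIK3R3 and PIK3R1 by -0.55 and -0.48, and the catalytic subunit PIK3CD, whose siRNA value lay under the threshold, was at least 1.02-fold lower. Among 9 other detected effectors, with a median of 0.15, STAT3 had 8.30 in the siRNA array and 7.50 in the NC array, a difference of 0.80. The adaptors NCK2 and CRKL differed by 0.72 and -0.50, and the kinase SRC by 0.47.

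Transcripts known to respond to EGF and ERK were more often higher than lower, but by less than 2-fold. Of 22 detected genes, 15 had a higher and 7 a lower value in the siRNA array, with a median of 0.20, and among all detected genes 5666 had a higher and 5461 a lower value. PHLDA1, an early response gene, had 7.37 in the siRNA array and 6.53 in the NC array, a difference of 0.84. The transcription factor MYC differed by 0.71, the ERK phosphatase DUSP5 by 0.66 and the AP-1 subunit JUNB by -0.70. CCND1 (cyclin D1), named after its value was seen, differed by -0.54. The list shares genes with lists already known to be higher on these arrays and is no independent evidence of a direction.

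**Figure D4:**
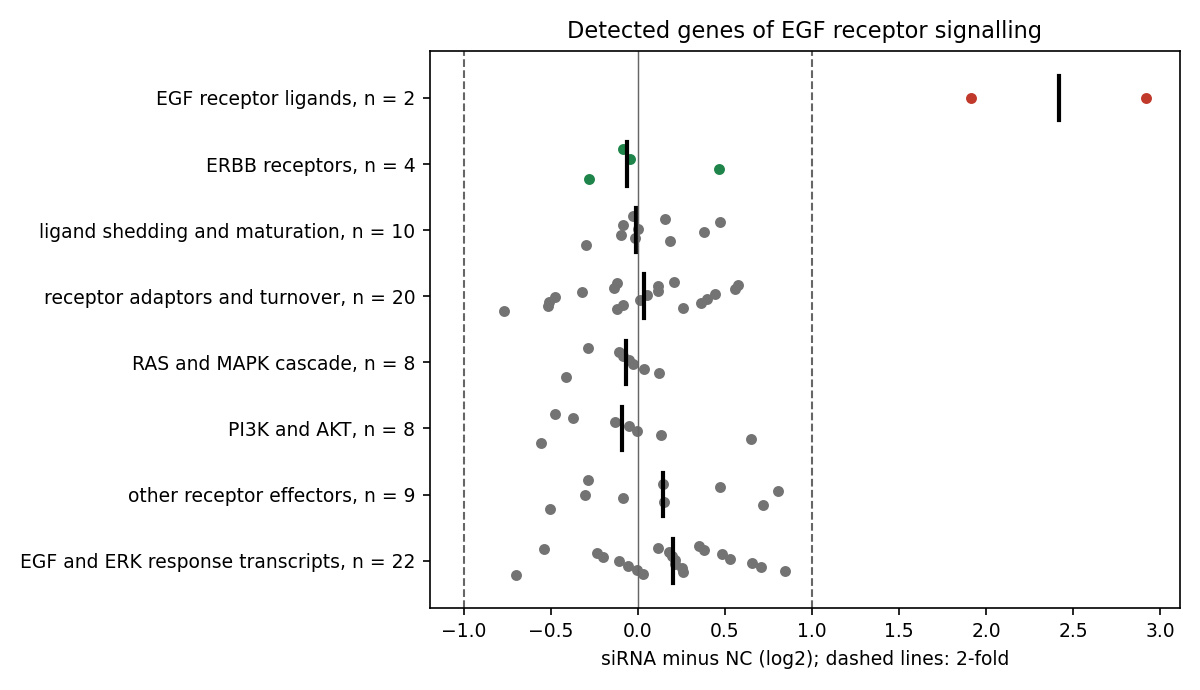
Difference between the arrays (siRNA minus NC, log2, horizontal axis) of each detected gene, 1 point per gene, in the 2 member lists and the 6 lists of shedding, adaptors, cascades, effectors and response transcripts, with the list median as a black bar and 2-fold as dashed lines. The 2 detected ligands stand at 1.92 (measured, with an NC value under the threshold) and 2.92, and no receptor and no gene of those 6 lists passes 2-fold. Vertical scatter within a list has no meaning.

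Markers of other cell types were read beside the ligand differences. Of 10 fibroblast and stellate cell markers 6 were detected. Of these 6, LUM (4.95-fold), FBN1 (4.55-fold) and COL1A2 (2.10-fold) were at least 2-fold higher, where 1.94% of detected genes were. None was at least 2-fold lower. The summed level over all 10 markers, on the linear scale, was 1542 in the siRNA array and 506 in the NC array. Such sums weigh the brightest probe sets most, here LUM, with 9.95 (log2) in the siRNA array and 7.64 in the NC array. Levels of different genes are not comparable. PDGFRA differed by 0.095, COL1A1 by 0.059 and COL3A1 by -0.041, and DCN, PDGFRB, ACTA2 and THY1 lay under the threshold in both arrays. None of 5 endothelial markers was detected, nor were the leukocyte markers PTPRC, CD68 and CD163, while CD14 differed by 0.27 and MARCO by 0.0049. Of 5 biliary markers 4 were detected, with SPP1 at 0.56, KRT19 at 0.52, EPCAM at 0.099 (its other probe set at -0.13) and SOX9 at 0.090, and summed levels of 1618 in the siRNA array and 1366 in the NC array. Of the 9 hepatocyte markers, 4 (AFP, SERPINA1, AHSG and TF) were at least 2-fold lower by measured values, where 0.863% of detected genes were. The siRNA value of AHSG, 4.19, lay under the threshold, so AHSG is given as at least 1.82-fold lower. Another marker, TTR, was at least 2-fold higher, where 1.94% of detected genes were. The summed levels of the 9 markers were 7556 in the siRNA array and 11101 in the NC array. The part of these shifts in the EREG and HBEGF differences was not tested.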

How the data were processed

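Total RNA of 2 Huh-7 cultures was measured on Affymetrix arrays, 1 per group. The submitters' processing notes name Transcriptome Analysis Console 3.0 and Affymetrix Expression Console; their role, the background correction and the normalization are not given in the sources used here. The deposited values, 1.39 to 12.7, were taken as log2 expression. Once sorted, the 2 columns were never more than 0.0997 apart, so they were taken as already normalized and used unscaled. Background signal compresses differences of dim genes.

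Probe sets were named by the platform annotation, with symbols updated through RefSeq (GRCh38.p14): 19460 of 33297 named 1 gene, 1754 several and 12083 none listed. The probe set with the highest mean stood for a gene. Detection, at 4.66, is a convention. Differences were computed with Python 3.11.15 and pandas 2.3.3. The procedure was tested on simulated data with a noise standard deviation of 0.15 per array and changes placed only in brighter genes. The standard deviation of the differences of detected genes here was 0.397. The simulation therefore says nothing of dim genes such as HBEGF. No test was possible with 1 array per group, and the number of arrays limits the precision. The members and lists were chosen with earlier results of these data known. The genes named were the members, DEPDC1, the 4 genes with the largest absolute difference (or all past 2-fold) among the detected genes of each list, detected cell type markers, and the 2 genes ranked on either side of EREG; others are said to be named after their values were seen. Alternatives covered scaling, probe set choice, detection and fold.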

Additional observations from a re-analysis of the deposited data

How the results depend on the processing

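The 2 members at least 2-fold higher, EREG and HBEGF, were the same 2 under median centring, quantile normalization, lowess scaling, the median over probe sets, probe sets of several genes, no filter, values raised to the threshold, 1.5-fold, and a threshold from probe sets with a listed gene (added after the data were seen). These calls use measured values: under that last threshold the bound of HBEGF is 1.96-fold. Median centring, the median over probe sets, probe sets of several genes and no filter left the EREG and HBEGF differences unchanged. Those settings could not move these 2 calls. With the threshold at the 75th percentile (6.49), HBEGF and ERBB2 were no longer detected and 1 member, EREG, remained; 137 genes in all were at least 2-fold higher. At 1.5-fold, 685 detected genes were higher and 424 lower, and still 2 members. No member was lower by the fold called at any setting. The EREG difference ranged from 2.87 to 2.93 and that of HBEGF from 1.49 (values raised to the threshold) to 1.93. EGFR, ERBB2, ERBB3 and ERBB4 kept their signs in all 7 settings with a value for them. Only quantile normalization and lowess scaling changed their differences. The remaining settings left the main values as they were, so those settings could not test the signs. No paired analysis was possible because each group has 1 array. Leaving out a replicate was not possible for the same reason. HBEGF, BTC, EGF and TGFA are limited by signal near or under the threshold.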
